A study of Mus musculus with 2 samples.

Results

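The genes described here are 393 of the 3542 mouse genes that the GENCODE M21 annotation lists as TEC, a class of entries that still await experimental proof, or as sense-intronic. They were chosen by their values: each reached 5 TPM (the TPM unit gives each transcript's share of the library per length) and 50 expected counts in both libraries. Their levels are therefore a description and no test was made on them. The same thresholds were reached by 11.5% of all 55536 annotated genes. By class, 352 of 3213 TEC genes (11.0%), 40 of 327 sense-intronic genes (12.2%) and 1 of 2 genes with transcripts of both classes passed, beside 5483 of 22028 protein-coding genes (24.9%) and 90 of 5854 lincRNA genes (1.54%). Of the class, 1647 genes had no count in either library, 295 had 50 counts but under 5 TPM in at least 1 library, and 25 had 5 TPM but under 50 counts.

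The libraries are total RNA depleted of ribosomal RNA, taken from the chromatin fraction of bone-marrow-derived macrophages of C57BL/6J mice, phagocytes grown from marrow. Cells of both libraries had 100 ng/ml lipid A (the lipid anchor of lipopolysaccharide, sensed by Toll-like receptor 4) for 12 h, a washout of 12 h and 100 ng/ml lipid A again for 75 min. There is 1 group with 2 biological replicates, started from 250 ng of RNA in replicate 1 and 500 ng in replicate 2. Both replicates carry the same donor entry and the labels do not say whether they were separate cultures, so a spread between them may be technical. Age and sex were not collected. Untreated cells and other fractions were not analysed here, so no value below is a response to lipid A. Replicate 1 held 18388793 expected counts on annotated genes and replicate 2 held 17640464. All 10 macrophage markers reached 1 TPM in both libraries, with summed levels of 1175 and 792 TPM, whereas the summed level of B-cell, T-cell, neutrophil, erythroid and fibroblast markers stayed under 1 TPM for each list.

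As background, a TEC entry marks a stretch where clustered cDNA sequences with polyadenylation features point to a possible gene of its own. A sense-intronic entry is a noncoding transcript that lies in an intron of another gene, on that gene's strand, without touching its exons. Chromatin-bound RNA is rich in transcripts that are still being made and in introns not yet removed. Sequence inside an intron can thus be read both from a separate transcript and from the unspliced transcript of the gene around it. The gene around a member is called its host below when it lies on the same strand.

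A conventional mRNA 3′ end carries the polyadenylation signal AATAAA shortly before the cleavage site. The sequences below are examples of member ends with and without it, and not a full set of the highest members. They are the last 60 bases of 5 annotated transcripts, with AATAAA in capitals where it occurs. AC167363.2 (chr17:29093416-29093475, minus strand, mm10) lies opposite Cdkn1a and Gm43197 (chr6:3336772-3336831, minus strand) lies in the noncoding gene Gm20559. Gm37159 (chr2:68894911-68894970, plus strand) lies in Cers6, Gm38062 (chr1:80728809-80728868, minus strand) in Dock10 and Gm43430 (chr3:135650670-135650729, minus strand) in Nfkb1.
AC167363.2: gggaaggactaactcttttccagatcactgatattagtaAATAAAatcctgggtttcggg
Gm43197: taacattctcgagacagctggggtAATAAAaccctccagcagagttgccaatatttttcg
Gm37159: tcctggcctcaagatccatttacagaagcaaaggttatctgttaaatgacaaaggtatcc
Gm38062: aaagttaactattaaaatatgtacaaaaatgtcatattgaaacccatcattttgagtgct
Gm43430: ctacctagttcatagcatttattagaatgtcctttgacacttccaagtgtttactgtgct

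AC167363.2 and Gm43197 hold the hexamer and the ends of Gm37159, Gm38062 and Gm43430 do not. Over all members, 66 of 400 annotated transcripts (16.5%) had AATAAA in their last 50 bases, searched on the transcript's own strand. The share was 22.4% in the 3199 transcripts of TEC and sense-intronic genes below the thresholds, 17.3% in retained-intron transcripts, 30.6% in lincRNA and 40.6% in protein-coding transcripts of the same annotation. Members stood nearest to retained-intron transcripts in this share. At least 12 A among the last 20 bases were found in 8.75% of member transcripts, against 9.22% of transcripts of the class below the thresholds, 5.93% of retained-intron, 6.88% of lincRNA and 6.45% of protein-coding transcripts. In this share members stood nearest to the rest of their class. The median GC content was 41.7% in members, against 42.6% in the class below the thresholds, 49.7% in retained-intron, 46.2% in lincRNA and 50.4% in protein-coding transcripts. A match is a description of the letters and no proof of use, and its absence from this window says nothing about other signals.

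The other end matters where an entry begins at the splice donor of its host, the GT with which most introns start. The first 40 bases of Gm37902 (chr1:80276374-80276413, minus strand), in the ubiquitin ligase gene Cul3, and of Gm47234 (chr9:44634195-44634234, plus strand), in the RNA helicase gene Ddx6, are shown because both entries start on the base after a host exon. Capitals mark the GT.
Gm37902: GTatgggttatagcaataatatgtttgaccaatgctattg
Gm47234: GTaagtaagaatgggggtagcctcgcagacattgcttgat

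Such entries were few. Of the 311 members that lay wholly within introns of their hosts, 6 began within 50 bases of the upstream exon and 2 ended within 50 bases of the downstream exon. The entries at the far side were Gm42763 in the histone methyltransferase gene Setd2 and Gm42866 in the ataxin gene Atxn2, each ending 2 bases before the next exon. The median intron with a member was 21897 bases long, with 5210 bases from the upstream exon to the member and 10136 bases from the member to the downstream exon. The typical member was a short block deep inside a long intron, and 377 of 393 members had a single exon. Annotated lengths ran from 400 to 30942 bases with a median of 2102.

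Member levels ranged from 5.02 to 145.76 TPM with a median of 11.47 in replicate 1 and from 5.01 to 218.63 TPM with a median of 13.76 in replicate 2. The median of the mean level was 12.75 ± 1.62 TPM (SD between the library medians, n = 2), with 36 members at 50 TPM or more, 10 at 100 or more and 141 under 10. Protein-coding genes at the thresholds had a median of 19.6 TPM. Expected counts per member ran from 52 to 14107 in replicate 1 (median 355) and from 57 to 15793 in replicate 2 (median 391). Together members held 286868 counts, or 1.56% of annotated counts in replicate 1 (95% Wilson interval 1.55% to 1.57%), and 348777 counts, or 1.98%, in replicate 2 (1.97% to 1.98%). These intervals cover counting error only.

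**Figure D1:**
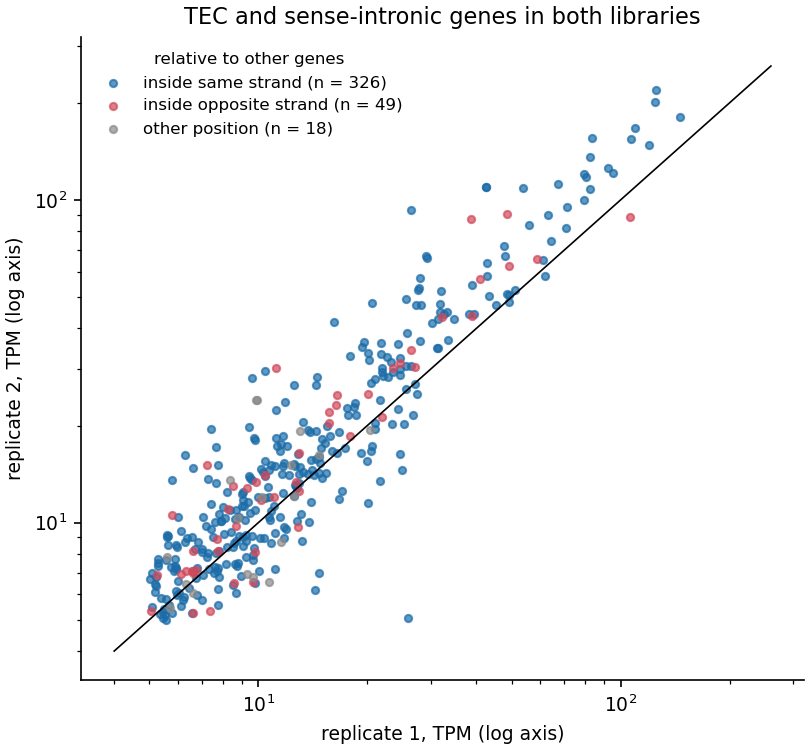
Level of each of the 393 members in replicate 1 (x axis, TPM, log axis) and replicate 2 (y axis, TPM, log axis), with the line of equal levels and colours for the position relative to other genes. Most points lie above the line, 286 members being higher in replicate 2, and the lone point far below it at 25.83 and 5.05 TPM is Gm29488.

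The 15 highest members included several from the same genes. Pairs of values belong to replicate 1 and then replicate 2. A630081D01Rik (chr1:80747222-80749054, minus strand) had 125.30 TPM in replicate 1 and 218.63 TPM in replicate 2. Gm38062, from the same gene, had 124.81 and 201.56 TPM. Both lie in introns of Dock10, at 189.22 and 332.08 TPM. All 3 genes were higher in replicate 2 and both members stayed below their host in each library. The host level includes annotated retained-intron isoforms, which took 52.3% and 56.8% of the Dock10 level. Gm37084 (chr1:131086252-131092149, minus strand) had 145.76 and 180.46 TPM inside Mapkapk2, a kinase that acts below p38, which had 72.82 and 100.96 TPM. Here the member stood above its host in both libraries. With 14107 and 15793 expected counts over 5898 bases, it was also the member with the most counts.

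Itpkb, an inositol trisphosphate kinase gene at 221.75 and 302.30 TPM, held 3 of the 15 highest members. Gm37390 (chr1:180372669-180373540, plus strand) had 109.86 and 166.96 TPM, Gm37033 had 79.40 and 120.53, and Gm36933 had 80.47 and 117.97. All of them stayed below the host and were higher in replicate 2. Cers6, which encodes a ceramide synthase, held 4 of the 15, led by Gm37159 (chr2:68891366-68894970, plus strand) at 119.96 and 147.68 TPM. The others were Gm37651 at 106.62 and 154.96 TPM, Gm37666 at 83.40 and 155.78 and Gm38236 at 95.50 and 120.76, in a host at 293.80 and 435.54 TPM. In replicate 1, 95.3% of the Cers6 level and 52.2% of the Itpkb level were assigned to annotated retained-intron isoforms.

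The rest of the 15 came 1 to a gene. Gm49125 had 92.34 and 125.57 TPM in Ddhd1, a phospholipase gene at 263.72 and 344.87 TPM. Gm47445 had 82.14 and 135.71 TPM in Dse, which encodes dermatan sulfate epimerase, at 102.65 and 119.97 TPM, so that this member stood below its host in replicate 1 and above it in replicate 2. Gm49730 had 82.59 and 107.90 TPM in Parp14, an interferon-inducible ADP-ribosyltransferase gene at 849.77 and 983.66 TPM, and shared 110 of its 1773 bases with a host exon. Gm43430 had 67.28 and 112.03 TPM in Nfkb1, the gene of the NF-kB subunit p50, at 386.99 and 588.88 TPM. AC167363.2 was the highest member on the strand opposite to another gene, with 106.31 and 88.67 TPM against 87.17 and 97.65 TPM of Cdkn1a, the cell-cycle inhibitor p21. It was the only one of the 15 that was lower in replicate 2. Of its 1046 bases, 273 overlapped an exon of Cdkn1a. Whether counting used the strand is not stated in the sources at hand. For any entry opposite another gene, in its exons or its introns, the reads of the 2 strands thus cannot be told apart.

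The 40 sense-intronic members had a median of 10.58 TPM, against 12.86 TPM in the 352 TEC members. Gm48302 led them with 71.31 and 95.12 TPM in Ell2, an elongation factor gene of RNA polymerase II at 167.94 and 198.82 TPM. Gm47920 had 61.22 and 64.93 TPM in Zmiz1, a transcriptional coactivator gene at 75.29 and 59.62 TPM, which makes it the higher of the pair in replicate 2 and the lower in replicate 1. Gm17024 in the coregulator gene Ifrd1 had 31.96 and 52.32 TPM and Gm3513 in Fnip2, whose protein binds folliculin, had 31.71 and 45.11. The next 5, Gm47664 in Elmo1, Gm43445 in Lmo4, Gm48194 in Gm49354, Gm42659 in Capza1 and AC154492.2, averaged between 16.3 and 27.7 TPM, and Gm42658, also in Capza1, averaged 15.98 ± 1.49 TPM (SD, n = 2). Of these 10, Gm48194 and AC154492.2 stood above their host in both libraries, AC154492.2 with 15.94 and 16.69 TPM.

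At the threshold itself, Gm44746 in Prkcb had 5.56 and 5.01 TPM, 2310043P16Rik had 5.02 and 6.68 and Gm29488 had 25.83 and 5.05, all just inside. Just outside were Gm43484 with 4.99 and 5.33 TPM, Gm48904 with 4.95 and 6.05 and Gm28941 with 4.92 and 8.72. The margin to the threshold is smaller than the difference between the replicates in each of these 6 genes.

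Position was a measure that the choice of members did not use. Of the 393 members, 326 (83.0%) lay wholly inside a gene of another class on the same strand, compared with 1687 of the class below the thresholds (53.6%). Inside a gene on the opposite strand alone were 49 members (12.5%) and 11.6% of the class below the thresholds. Only 10 members (2.54%) had no such neighbour, against 29.0% of the class below the thresholds. The remaining 8 members overlapped a same-strand gene in part (5) or began within 5 kb past its 3′ end (3). All 40 sense-intronic members lay inside a same-strand gene, which their class requires, and 285 of 352 TEC members did.

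Hosts were 308 times protein coding, counted by member, and otherwise processed transcripts (13), antisense genes (3) or lincRNAs (2). There were 242 distinct hosts, of which 50 held 2 or more members and 134 members shared a host in that way. Members of one host are not independent of each other. The median span was 76.3 kb in the distinct hosts, against 28.8 kb in protein-coding genes at the thresholds. Of 232 protein-coding hosts, 191 (82.3%) had an annotated retained-intron isoform, against 72.4% of protein-coding genes at the thresholds. In those with such an isoform, it took a median of 45.9% of the gene's level in hosts and 46.9% in all 3972 protein-coding genes at the thresholds that have one.

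Members lay in genes of far higher level than the rest of the class did. The median host level was 40.7 TPM for members and 0.37 TPM for same-strand genes of the class below the thresholds. On the opposite strand the surrounding genes had medians of 43.0 TPM for members and 0.17 TPM for the others. Among class genes whose same-strand host was under 1 TPM, 2 of 957 (0.209%) were members. The share was 3.67% with hosts at 1 to 5 TPM, 14.9% at 5 to 10, 29.9% at 10 to 30, 60.4% at 30 to 100, and 73.2% (71 of 97) over 100 TPM. It was higher at every step. For genes on the opposite strand the shares were 0 of 220, 3.45%, 2 of 25, 27.5%, 41.9% and 72.2% (13 of 18) over the same bins. With the strand setting not stated, reads of these genes and of the gene around them cannot be told apart.

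**Figure D2:**
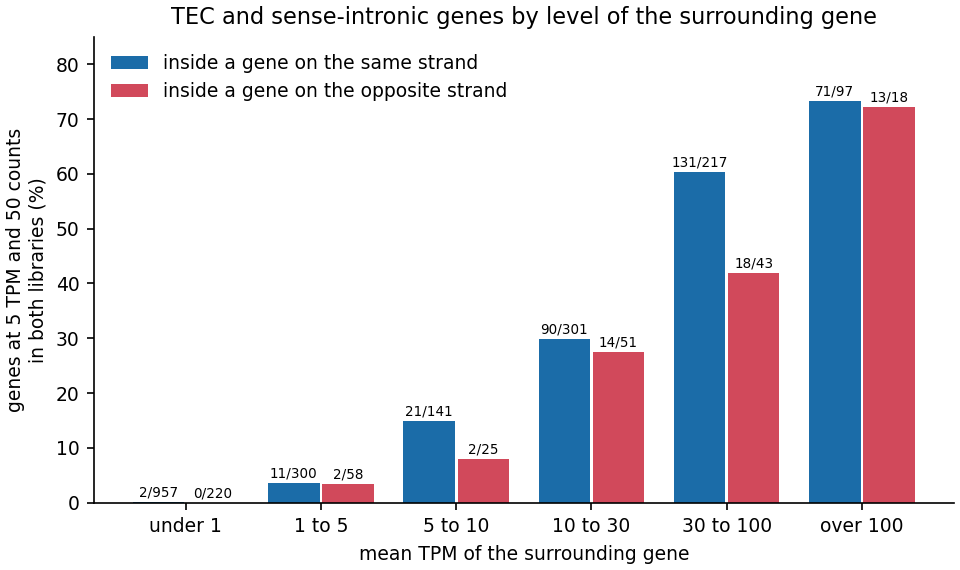
Share of TEC and sense-intronic genes that reached 5 TPM and 50 counts in both libraries (y axis, %) by the mean TPM of the gene around them (x axis), for genes inside a same-strand gene and inside an opposite-strand gene, with member and gene numbers above the bars. The share is 0.209% and 0 in the lowest bin and 73.2% and 72.2% in the highest.

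Across all 2013 class genes inside a same-strand gene, log2 levels of gene and host had a Pearson r of 0.86 and a Spearman rho of 0.85, and across the 415 inside an opposite-strand gene r was 0.79 and rho 0.80. Within members alone, whose range is limited by the threshold, r was 0.52 and rho 0.48 for 326 same-strand pairs and r was 0.51 and rho 0.52 for 49 opposite-strand pairs. These coefficients are across genes, which share libraries, depth and often a host, and are not replicates.

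Members were mostly lower than their hosts when both were given per length. The median log2 ratio of member over host level was -1.48 (quartiles -2.47 and -0.52), with 53 members above and 273 below their host. The thresholds acted on the member level, so lower entries are left out and the choice raises this ratio. Host level is per base of the host's annotated transcripts, retained-intron isoforms included. On the scale of expected counts per base of gene span the order turned, with a median log2 ratio of member over host of 3.29. Host counts are those assigned to annotated transcripts, while the span adds introns. A higher ratio thus follows from how this scale is built, and the sign depends on the unit. The members furthest below their hosts per length were Gm43362 in the splicing factor gene Srsf11 (-4.71), Gm42735 in the flippase gene Atp8a1 (-4.34), Gm29488 in Srgap2 (-4.11), Gm44283 in Dennd1a (-4.03) and Gm45220 in Picalm (-4.02). Gm43362, for example, had 10.46 and 13.91 TPM against 272.76 and 371.28 TPM of Srsf11.

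Furthest above were members of hosts at 0 or at a few TPM. Gm48194 had 21.70 and 24.05 TPM and Gm37110 had 6.61 and 7.06 TPM, while their hosts Gm49354 and Khdrbs2 were listed at 0 in both libraries. Gm37110 has the same annotated sequence as Gm44183 on chromosome 2, so the place its reads came from is uncertain. Gm47087 had 20.66 and 47.89 TPM and Phxr4 had 12.57 and 26.78 TPM inside Maml2, a Notch coactivator gene at 2.29 and 3.26 TPM. 2610306O10Rik had 9.72 and 18.35 TPM inside Bag3, a co-chaperone gene at 2.25 and 3.20 TPM. The Maml2 and Bag3 members were higher than their hosts in both libraries and, like them, higher in replicate 2.

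Few members touched an exon of their host, as 15 of the 326 shared at least 1 base with one. Gm42793, for example, starts 3 bases past the annotated start of Spp1, the osteopontin gene, shares 309 of its 1252 bases with Spp1 exons and had 29.04 and 66.81 TPM, against 35.87 and 97.35 TPM of Spp1. Reads in the shared stretch may be divided between both genes by the counting.

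On the opposite strand, 18 of the 49 members overlapped an exon of the surrounding gene and 31 lay in its introns. The set with exon overlap had a median of 18.4 TPM and a median log2 ratio over the surrounding gene of -1.58, and the intronic set had 11.3 TPM and -1.82. After AC167363.2, the highest were Gm44207 with 48.66 and 90.13 TPM opposite the semaphorin receptor gene Plxna1 and Gm47603 with 38.63 and 87.58 TPM opposite 2010111I01Rik. Both were higher in replicate 2. Of the 49, 5 stood above the gene around them by mean level, namely AC167363.2, 2210406H18Rik opposite Mettl9, Gm42502 opposite Rac1, Gm44183 opposite Nek6 and Gm37152 opposite Pde6d. These 5 were listed after their values were seen. Gm44183 is the copy of Gm37110 named above, and the place its reads came from is likewise uncertain.

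Among the members without a surrounding gene, Gm37352 on chromosome 8 was highest, with 20.28 and 19.38 TPM, and the nearest gene of another class, Gm26887, averaged 0.105 TPM at a distance of 3202 bases. Gm44154 on chromosome 6 had 14.75 and 16.16 TPM and lay 63 bases from Rassf4, an opposite-strand gene at 356 TPM. The longest member, 9330162G02Rik on chromosome 7, spans 30942 bases, overlaps part of the ubiquitin ligase gene Ube3a on the opposite strand and had 8.78 and 10.32 TPM. Of the partly overlapping members, Gm37296 shares 9 bases with the microRNA gene Mir30d and had 10.22 and 11.98 TPM, and Gm37795 shares 17 bases with Mir34a and had 8.34 and 13.57 TPM. Both microRNA genes were themselves listed at 0. These examples were picked after their values were seen.

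Within hosts, the level was lower with distance from the 5′ end in some genes and not in others. To compare without the threshold, all 615 class genes inside a same-strand host of at least 10 TPM were split by whether they lay in the 5′, middle or 3′ of 3 equal stretches of the host span. The 245 in the 5′ stretch had a median of 7.99 TPM and a median log2 ratio over the host of -2.09, the 218 in the middle stretch had 4.70 TPM and -2.69, and the 152 in the 3′ stretch had 5.04 TPM and -2.89. In replicate 1 the median was -2.16 in the 5′ stretch and -3.00 in the 3′ stretch, and in replicate 2 it was -1.96 and -2.85. Members made up 57.1%, 41.7% and 40.1% of these genes from the 5′ to the 3′ stretch. Host levels differed as well, with medians of 26.9 TPM in the 5′ stretch and 35.8 TPM in the 3′ stretch, as did host spans, at 107 and 137 kb, and their part in the ratios was not tested.

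**Figure D3:**
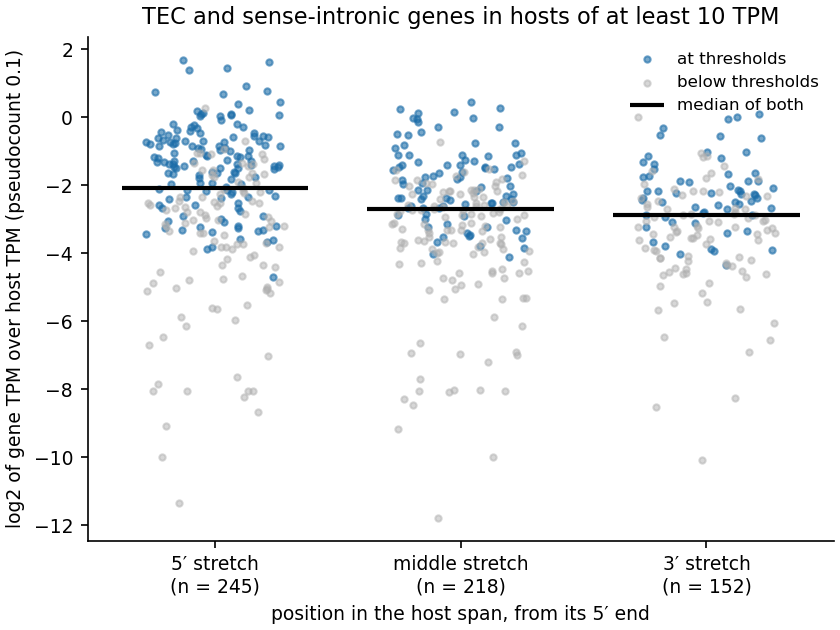
Log2 ratio of gene over host level (y axis, pseudocount 0.1 TPM) for the 615 TEC and sense-intronic genes in hosts of at least 10 TPM, by position in the host span (x axis), with members in blue, genes below the thresholds in grey and the median of both as a bar. The medians are -2.09, -2.69 and -2.89, and each stretch spans several log2 units.

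Of the 50 hosts with 2 or more members, the first member along the gene was higher than the last in 38, and the median fold of the highest over the lowest member was 1.47. The threshold hides any lower entries, so these folds are a description of members only. Camk2d, a calcium-dependent kinase gene at 89.44 and 123.52 TPM, held 6 members. The last, Gm42514 at 149.8 kb, had 6.00 and 10.43 TPM, against 27.30 and 47.10 TPM in Gm43011, the first, at 3.73 kb. The order of the 6 was the same in both libraries but for the first pair, which changed places. In Med13l, a Mediator subunit gene at 33.01 and 39.00 TPM, Gm43051, the last of 5, had 8.98 and 6.84 TPM, against 31.29 and 42.81 TPM in Gm43788, the first.

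Mir99ahg, the host gene of the miR-99a and let-7c cluster at 94.52 and 86.90 TPM, held the most members, 8 over its 537 kb span. The last, 9530003O04Rik, had 5.21 and 6.38 TPM, against 24.58 and 16.27 TPM in Gm37466, the first. The 3 members up to 180.3 kb from the 5′ end had 11.84 TPM or more in each library, and the 5 beyond had 10.43 TPM or less. In Cers6 the 6 members alternated between higher and lower levels. The first, Gm37159, was highest in replicate 1 at 119.96 TPM and the last, Gm38377, lowest at 53.72 TPM, whereas in replicate 2 the fifth, Gm37666, was highest at 155.78 TPM and the fourth, Gm37747, lowest at 83.47 TPM. Picalm, a clathrin assembly gene at 297.09 and 359.15 TPM, was highest at its last member but one, Gm45221, at 42.84 and 57.95 TPM, and lowest at the last, Gm45220 at 17.56 and 22.64 TPM. In Rap1a, a small GTPase gene at 9.53 and 8.11 TPM, the last member, Gm43328, was highest at 12.94 and 14.12 TPM, and all 4 members stood above the host by mean level.

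**Figure D4:**
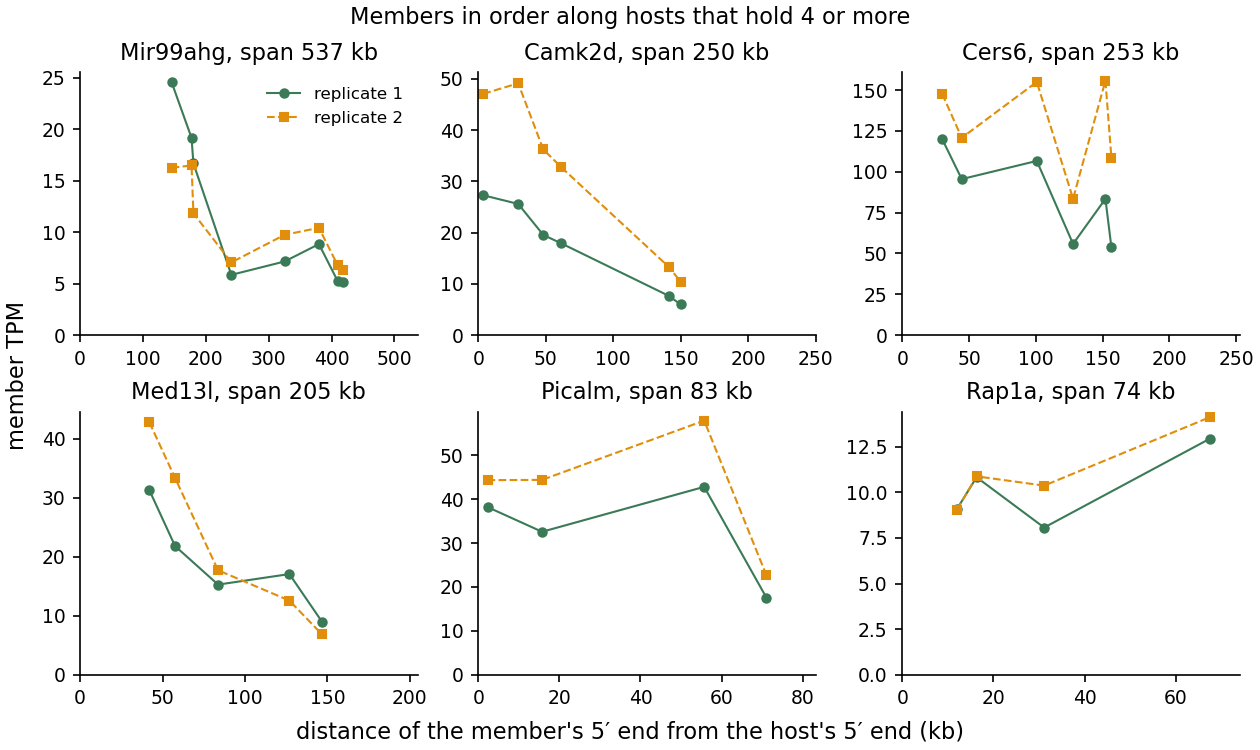
Member TPM (y axis, from 0) against the distance of the member's 5′ end from the host's 5′ end (x axis, kb) in the 6 hosts with at least 4 members, for replicate 1 and replicate 2. Camk2d members are lowest at the last position, at 6.00 and 10.43 TPM, while Rap1a members end highest, at 12.94 and 14.12 TPM.

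Members were on balance lower in replicate 1 than in replicate 2. With counts scaled by TMM, the median log2 ratio of replicate 1 over replicate 2 was -0.24 in members, against 0.003 over all 13247 genes that had 10 or more counts in both libraries and -0.05 over the 6387 genes at the thresholds. It was below 0 for 282 members and above 0 for 111. A 2-fold difference was reached by 25 members (6.36%), beside 7.25% of the 13247 genes and 3.29% of the genes at the thresholds. Of these, 22 were higher in replicate 2 (5.6%, beside 4.02% of the 13247 genes) and 3 in replicate 1 (0.763%, beside 3.23%). At the thresholds, 2.4% of genes were 2-fold higher in replicate 2 and 0.892% in replicate 1. The members' share past 2-fold was thus near that of the 13247 genes and above that of the genes at the thresholds, with the excess among members higher in replicate 2. The 22 include Gm20236 and Gm37094, copies with identical sequence given 3123 and 7312.5 counts each. They also include the identical copies Gm37847 and Gm31748. Both copies of a pair are counted, although their reads cannot be told apart, so the 22 are not all separate. There is 1 library on each side, so no p-value is given. The libraries also differ in starting RNA, with 250 ng in replicate 1 and 500 ng in replicate 2, and this cannot be told apart from other differences between them.

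The median log2 ratio was -0.26 in the 323 members with a host ratio and -0.09 in their same-strand hosts, and the member's ratio minus that of its host had a median of -0.14. Without regard to sign, the median log2 ratio was 0.33 in these members and 0.26 in their hosts, a difference that was not tested. Member and host had the same sign in 230 of 323 pairs, with a Pearson r of 0.69 and a Spearman rho of 0.66 across genes. Of 20 members past 2-fold with a host ratio, 19 had a host of the same sign and in 10 the host was past 2-fold too. On the opposite strand the median was -0.22 for members and -0.20 for the surrounding genes, and 35 of 49 pairs had the same sign (r 0.61, rho 0.55).

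**Figure D5:**
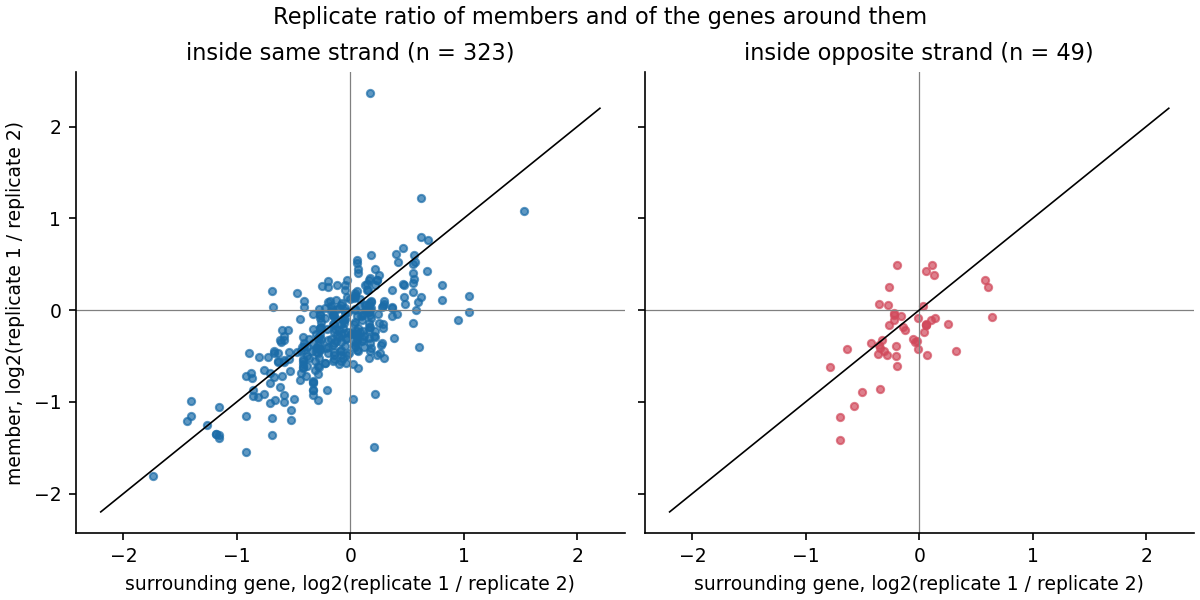
Log2 ratio of replicate 1 over replicate 2 of the member (y axis) against that of the gene around it (x axis), for 323 members inside a same-strand gene and 49 inside an opposite-strand gene, with the line of equal ratios. Points spread along the line, with Gm29488 at 2.36 over a host ratio of 0.18 and Gm37354 at -1.49 over 0.21 standing away from it.

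Gm29488, a sense-intronic entry in Srgap2, had 950 and 169 expected counts and a ratio of 2.36 on the log2 scale. Srgap2 itself had 292.35 and 245.12 TPM with a log2 ratio of 0.18. Gm37354, in the cytoskeletal linker gene Dst, had 380 and 981 counts and a ratio of -1.49, while Dst had 0.21 and Gm38157, in the same gene, had -0.28. In these genes 1 intronic entry differed between the libraries where the host did not reach 2-fold.

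In others the host differed along with the member. Gm38357, in Noct, the circadian gene of nocturnin, had 999 and 3211 counts and a ratio of -1.81, beside -1.74 in Noct. Gm37674 (-1.40), Gm38036 (-1.36) and Gm37783 (-1.06) lay in Plxna2, a semaphorin receptor gene at -1.16. Gm44951 had 444 and 193 counts and a ratio of 1.08 in Zfp710, a zinc-finger gene at 1.53. Gm44834 in Akap13 had -1.55 beside -0.92 in the host. Gm47602, opposite 2010111I01Rik, had -1.41 beside -0.69 in that gene.

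In Prkcb, a protein kinase C gene at 0.63, the members spread from 1.22 in Gm44664 and 0.80 in Gm45191 to 0.15 in Gm44746. C230066G23Rik in Lrrc8c, a subunit gene of a volume-regulated channel, had 0.76 beside 0.68 in its host. In 2 of the long hosts the ratio differed in sign along the gene. In Mir99ahg it was 0.55, 0.21 and 0.51 in the first 3 members and between -0.43 and -0.23 in the other 5, beside 0.06 in the host. In Med13l it was -0.44, -0.63 and -0.20 in the first 3 and 0.44 and 0.41 in the last pair, beside 0.07 in the host. The 6 members of Camk2d by contrast lay between -0.93 and -0.77, beside -0.33 in the host, and those of Cers6 were -0.28 in the first and -1.0 in the last, beside -0.59 in the host. These patterns were picked after their values were seen.

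Genes on lists for the macrophage response were compared with protein-coding genes in general. A same-strand member lay inside 220 of the 5483 protein-coding genes at the thresholds (4.01%) and inside 1.05% of all 22028. Of 48 interferon genes on a list, 1 (Parp14) held a same-strand member, as did 1 of 30 NF-kB genes (Nfkb1), 1 of 31 genes of Toll-like receptor 4 signalling (Irak2) and 1 of 31 macrophage identity genes (Ptprc). In each list that gene was the only one to hold any TEC or sense-intronic entry on its strand. The annotation thus allowed at most 1 such gene per list. The lists were not filtered by level, unlike the 5483 genes. Gm43912 had 39.42 and 44.36 TPM in Irak2, a kinase gene of the receptor's adaptor complex at 232.36 and 233.98 TPM. A130071D04Rik had 47.54 and 72.02 TPM in Ptprc, the gene of the leukocyte antigen CD45, at 652.59 and 796.18 TPM. On the opposite strand, Gm43963 had 24.62 and 31.25 TPM against 232.36 and 233.98 TPM of Irak2, and Gm43068 had 12.93 and 16.38 TPM against 203.40 and 219.49 TPM of Oas2, an antiviral oligoadenylate synthetase gene.

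A second program, which assigns reads to transcripts without alignment, gave slightly lower levels for members than the alignment-based one. The median log2 ratio of alignment-free over alignment-based TPM was -0.16 in members, against 0.23 in all genes at the thresholds and 0.27 in the protein-coding ones. The thresholds used the alignment-based values for members and comparison genes alike. The part of that choice in these ratios was not tested. A 2-fold difference between programs was found for 24 members (6.11%), beside 12.3% of the genes at the thresholds. All 24 were higher by the alignment-free program, beside 11.1% of the genes at the thresholds. By that program, 370 of the 393 also met both thresholds, as did other genes of the class, which makes 768 in all. The same shares over all annotated genes are not given, so neither number is read as particular to this class. Gm45033 in Pik3c2a differed most, at 47.8 TPM by the alignment-free and 5.28 TPM by the alignment-based program on average.

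Reads of a few members could not be assigned to 1 place. The posterior SD that the authors deposited was 0 for 343 members and over 10% of the count for 8. Among the members, 3 pairs have identical annotated sequence. Gm20236 in the mitoferrin gene Slc25a37 and Gm37094 in Gm16867 are copies of 4540 bases on chromosome 14 and were both given 42.50 and 109.94 TPM, with a posterior SD that was 39.0% of the count. Gm37847 and Gm31748, copies of 1497 bases on the same chromosome, had 9.89 and 24.07 TPM and 9.88 and 24.07 TPM. Gm37110 and Gm44183, copies of 1628 bases on chromosomes 1 and 2, had 6.61 and 7.06 TPM and 5.78 and 10.59 TPM by alignment, and the alignment-free program gave 40.1 and 53.4 TPM to each. The division of reads within each pair is uncertain.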

How the data were processed

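Members and gene lists were chosen with earlier results of these data known. Per the labels, both libraries are total RNA of the chromatin fraction, with a genome build of mm10. The authors' deposited expected counts and TPM values per gene have the columns of the alignment-based program RSEM, per the file headers, and a second deposited transcript table with estimated counts and TPM has those of the alignment-free program kallisto. Neither program versions nor the strand setting are stated in the labels or headers. TPM is divided by length and scaled within each library, so it falls when other genes rise. Depth was 18445009 expected counts in replicate 1 and 17686824 in replicate 2. Posterior SDs of the counts, also deposited, mark reads with several origins. No columns of other samples were present.

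Class, span, strand and exons came from GENCODE M21. Members have TEC or sense_intronic as the type of every transcript, at least 5 TPM and 50 expected counts in both libraries. A host is a gene of another class around the whole member on its strand, protein coding first, then the shortest. Ratios of levels used log2(TPM + 0.1). Ratios between replicates used expected counts rounded to whole numbers and TMM scaling (edgeR 4.0.16) for genes that had 10 or more counts in both libraries, and a 2-fold difference was called without a p-value. That step was run on simulated counts with counting noise alone, so the run does not cover other spread between replicates. Transcript sequences came from the annotation's transcripts. Alternatives were other thresholds, scalings (DESeq2 1.42.0 size factors, total counts), programs, pseudocounts, host definitions and each library alone. Spike-in and phiX174 entries were left out. So were 26248 numbered entries without gene names, and these numbered entries held 21 and 14 counts. Named were the 15 highest members, the 10 highest sense-intronic members, the 5 with the largest replicate ratio each way, the 5 highest and lowest over their host, the 3 on either side of the threshold, and members in listed hosts. Python 3.11.15 was used.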

Additional observations from a re-analysis of the deposited data

How the results depend on the processing

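No paired analysis was possible because there is 1 group of 2 libraries. The number of members was 596 at 2 TPM, 211 at 10 TPM and 768 when the thresholds were applied to the alignment-free values, beside 393 as reported. It was 413 to 464 with either library left out. The median level was 8.22 TPM at the 2 TPM threshold, 21.65 TPM at 10 TPM and 47.4 TPM when TPM was rescaled over protein-coding genes alone, and it ran from 11.05 to 11.74 TPM with either library left out. The changes under other thresholds and another denominator follow from how they are built, and the cause of the 768 members by the alignment-free values was not tested. The median log2 ratio of member over host was -1.92 by the alignment-free program, -1.44 with a pseudocount of 1 and -1.52 to -1.49 with either library left out. It reversed to 3.29 for expected counts per base of gene span, with 2 hosts at 0 counts left out, since introns then lengthen the host. The alignment-free over alignment-based median was -0.54 when both were rescaled over protein-coding genes. Members past 2-fold between replicates were 18 to 25 under every scaling and program tried. Of these, 16 to 22 were higher in replicate 2 and 2 or 3 in replicate 1. The share over all genes is given only for the main setting, at 7.25%, and without the filter on low counts, at 16.8%. The member counts under the other settings thus have no such share beside them. The difference between the 5′ and 3′ stretches of the host span, an alternative chosen after seeing the data, was 0.80 log2 units as reported, 0.77 by the alignment-free program and 0.84 to 0.89 with either library left out.

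A count of A past the 3′ end in the genome was planned and not run, since no genome was used here. With 2 libraries of 1 group, the values describe levels and their spread, and reads of an intronic entry and of its unspliced host cannot be told apart.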
